A study of Mus musculus with 3 samples.

Results

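The array that compared MigA9 cells after 12 h of DB818 with untreated cells gave ratios for 11478 of the 27389 genes it carries probes for. MigA9 is a mouse line transformed by Hoxa9, a homeobox transcription factor, and both the treated and the untreated cells carry that transformation and grew with serum and medium conditioned with GM-CSF, a cytokine of myeloid growth. The treated cells received 2.5 µM DB818, a compound that settles in the minor groove of DNA and was made to keep HOXA9 off its sites, and the others were not exposed. The series holds 1 two-colour array for each of 6, 12 and 24 h, and 12151 genes were measured on any of the 3 arrays. The genes described here were chosen on the 12 h array. A gene counted as measured where at least 1 of its probes was well above background both in Cy5, which carried the treated RNA, and in Cy3, which carried the untreated RNA, and was neither saturated nor marked as an outlier by the scanner software. Unless a fold or a signal is named, values are ratios, treated over untreated, on the log2 scale, and a gene's value is the mean of its measured probes. There was no second array at 12 h and no dye swap, which limits the precision, so no test or p-value is given, and "higher" and "lower" describe these 2 RNA samples. A gene's own dye bias and its response to the compound cannot be told apart, and the labels do not say whether the untreated RNA was prepared anew for 12 h.

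HOXA9 binds DNA together with homeobox partners of the PBX and MEIS families, and in myeloid progenitors it upholds growth and holds back maturation. Cells of this kind are kept alive by GM-CSF, whose receptor acts through JAK2 and the transcription factor STAT5. As they mature toward neutrophils, progenitors first fill primary granules with proteases and myeloperoxidase, later secondary granules with iron-binding and antimicrobial proteins, while monocytes take up scavenger and lectin receptors instead.

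Marker genes were checked against the label of the line. All 10 markers of granulocyte-monocyte progenitors were well above background in both channels, with the cathepsin gene Ctsg saturated in the treated channel, as were 6 of 6 neutrophil markers and 5 of 5 monocyte markers on the array. Of the markers of other cells, Mcpt8 among 6 of mast cells and basophils, Pf4 among 4 of megakaryocytes and Krt8 among 6 of mammary epithelium were above background in both channels, and 0 of 4 eosinophil, 0 of 4 erythroid and 0 of 5 lymphocyte markers were. Without Ctsg, whose treated signal is only a lower limit, the summed normalised signals of the other 9 progenitor markers were 36522 in untreated and 30698 in treated cells. Mpo (11224 and 7817) and Elane (4876 and 3288) differed most within this sum, and with median centring their ratios were -0.06 and -0.19. Kit (0.35) and Ptprc (0.01) lay above 0. The sums in untreated and treated cells were 22085 and 21825 for neutrophil markers and 1603 and 1397 for monocyte markers. In RNA from whole cultures, fewer cells of a type and less RNA per cell cannot be told apart.

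Most transcripts had nearly the same signal with and without DB818. The median ratio over all genes was 0.02, the 5th and 95th percentiles were -0.16 and 0.22, and 97.9% of genes lay within 0.32 of 0, the lowest of the thresholds used here. Higher by at least 0.32 were 160 genes, 1.39% of those measured, and lower by at least 0.32 were 83, or 0.723%. A threshold of 1.5-fold left 12 higher (0.105%) and 11 lower (0.0958%). A threshold of 2-fold left 1 higher (0.00871%) and 3 lower (0.0261%). By the same threshold of 0.32 the 6 h array had 205 genes higher (1.79%) and 83 lower (0.725%), and that of 24 h had 315 (2.72%) and 169 (1.46%), so the 12 h array held the fewest genes higher of the 3. The counts also followed brightness. Among the 3826 dimmest genes 16 were higher by at least 0.32 and 23 lower, among the 3826 of middle brightness 85 and 16, and among the 3826 brightest 59 and 44. An offset of 50 is part of every signal and shrinks the ratios of dim genes, and without it (offset 0) 632 and 418 genes passed 0.32. Loess, which removes the trend of the ratio with brightness, changed the counts further. With each array centred on its median instead, 1390 genes were higher and 3198 lower, and many values near 0 changed sign, among them those of Cish, Lyz2, Ms4a3, S100a9, Fcgr1, Myc, Bcl2, Mcl1, Atf4, Cybb, Cdkn1a, Psap and Calr, so these are given below as values without a direction. Of the 86 named genes past 0.32, 66 were still past it with median centring, and centred values are given beside genes that were not.

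**Figure D1:**
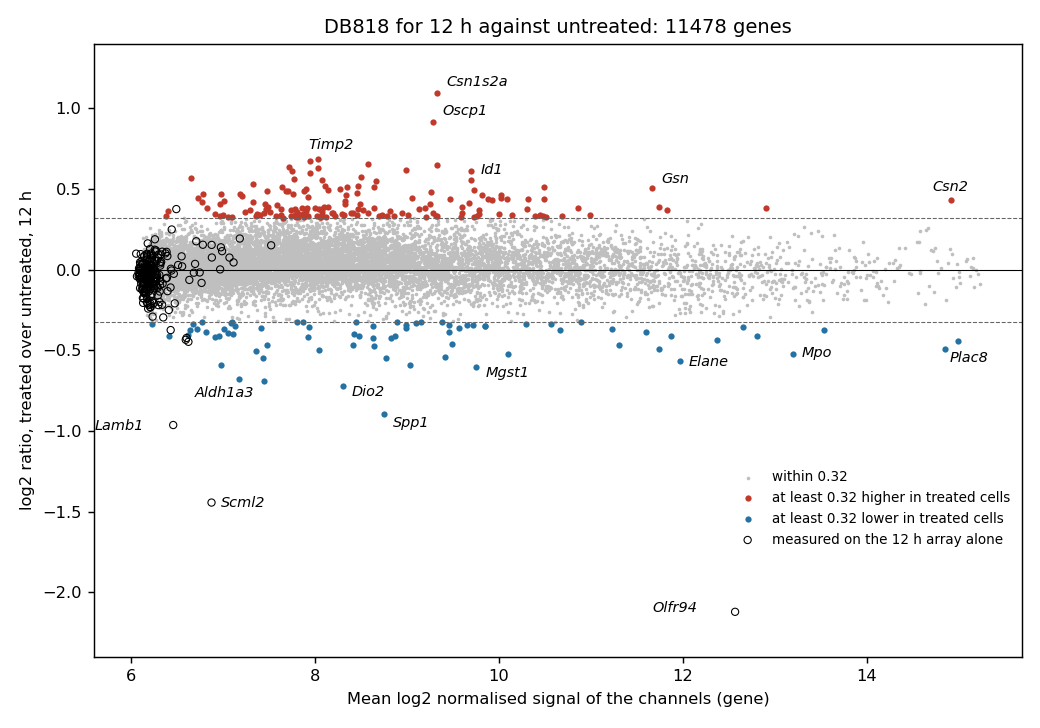
Log2 ratio of treated to untreated cells at 12 h (vertical axis) against the mean log2 normalised signal of both channels (horizontal axis), 1 point per gene, with dashed lines at 0.32 either way. Red and blue points are the genes higher by at least 0.32 and lower, open circles are genes measured on the 12 h array alone, and Hgf, at -5.92, lies below the axis; the lowest open circles (Olfr94, Scml2 and Lamb1) stand apart from the blue points, the lowest of which is Spp1 at -0.90.

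3 measures of error were at hand, all from within the array. Repeated spots of 1 probe (22 probes, 213 spots) had a pooled SD of 0.034, with a range of 0.011 to 0.062 between probes. Different probes of 1 gene (4019 genes) had a pooled SD of 0.11 and a median SD of 0.069. The scanner software's own error of a log2 ratio was 0.21 at the median. Of the 160 genes higher by at least 0.32, 89 had a scanner ratio at least 2 such errors from 0 in the same direction. Of the 83 lower, 63 did, and 2.76% of all genes had such a ratio in either direction. All 3 measures share the RNA, the labelling and the slide, so they cover neither the spread between cultures nor dye bias.

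Agreement between probes set apart a small group of genes. Of the 4019 genes with at least 2 measured probes, 54.6% had probes of 1 sign. Higher by at least 0.32 were 34 of them (0.846%, against 1.69% of the 7459 genes with 1 probe), and 33 of these had probes of 1 sign and 13 had every probe past 0.32. Lower by at least 0.32 were 7 (0.174%, against 1.02%), of which 6 had probes of 1 sign and 1, the glutathione transferase gene Mgst1, had every probe past 0.32. No gene had probes past 0.32 in opposite directions. Across the 3021 genes with exactly 2 measured probes, which share the array and are not independent replicates, the probes correlated at r = 0.34 (Spearman's rank correlation 0.31). The widest disagreements, picked out after their values were seen, were those of the copper transporter gene Slc31a2, whose probes read -0.97 and 0.03, the tRNA synthetase gene Lars (-0.15 to 0.89 over 3 probes), the antiproliferative gene Tob2 (-0.11 and 0.67), the serine racemase gene Srr (-0.74 and -0.01), Hcfc1 (-0.16 to 0.77 over 3 probes), Zfp219 (-0.60 and 0.08) and the cytokine inhibitor gene Socs2 (-0.13 and 0.50).

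**Figure D2:**
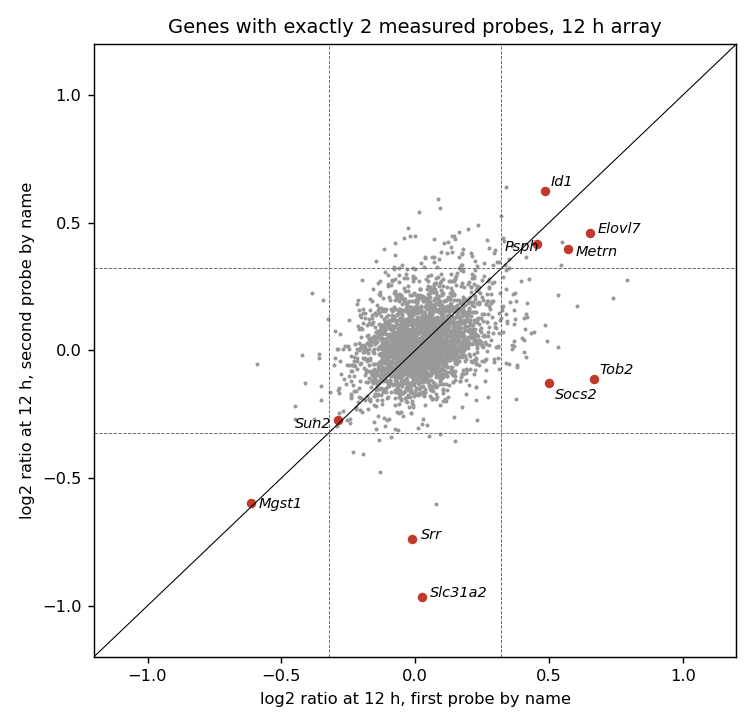
Log2 ratios at 12 h of the 2 probes of each of 3021 genes, with the diagonal and dashed lines at 0.32 either way. Most genes form a cloud around 0, Mgst1 (-0.61 and -0.60), Id1 (0.49 and 0.62) and Psph (0.45 and 0.42) lie on or near the diagonal outside it, and Slc31a2, Srr, Tob2 and Socs2 have 1 probe far from 0 and the other near it.

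The highest ratio of all belonged to a casein. Csn1s2a, which encodes a calcium-binding milk protein, had a normalised signal of 940 in treated and 439 in untreated cells, 2.14-fold higher, and was the 1 gene past 2-fold in that direction. Before normalisation its single probe read 1358 above background in Cy5 and 280 in Cy3. Its ratios were 0.39 at 6 h and 1.79 at 24 h, which makes the 12 h value the middle one. Csn2, the beta casein, was among the brightest genes measured, with 35753 in treated and 26532 in untreated cells (1.35-fold higher), after a 6 h ratio of 0.02. It had no value at 24 h, and with median centring its 12 h ratio was 0.99. Its treated signal was near the ceiling, as the saturated treated spot of Rpl12 read 37536. Of 11 listed caseins and milk proteins 3 were measured, Csn1s2a and Csn2 past 0.32 (1.39% of all genes were higher by as much) and the oxidase gene Xdh at 0.00. The defining mammary markers Wap, Lalba, Elf5 and Epcam were not well above background, and Krt8 stood at -0.08.

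Casein genes are classical targets of STAT5, whose dimers bind the letters TTCNNNGAA. Windows from 250 bases before to 50 bases after the annotated gene start (RefSeq, GRCm38.p6) were searched for these letters, which read the same on both strands. The stretches found in the 2 caseins are shown with those of Socs3 and Chil3, which carry the same 9 letters as Csn1s2a, and of Mgst1, each 30 bases on the gene's strand, 5′ to 3′, with the motif in capitals.

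Csn1s2a, from 20 bases after the start, chr5:87774460-87774489: ttatagtgctTTCTTAGAAttacaatgact

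Csn2, from 93 bases before the start, chr5:87699499-87699528: tcacgtagacTTCTTGGAAttgaagggact

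Socs3, from 154 bases before the start, chr11:117969501-117969530: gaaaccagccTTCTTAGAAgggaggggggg

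Chil3, from 172 bases before the start, chr3:106167717-106167746: aaatacccacTTCTTAGAAacatagctatc

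Mgst1, from 30 bases after the start, chr6:138141607-138141636: caggagaagcTTCCAGGAAatgagaaaaca

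The letters TTCTTAGAA thus stood near the start of 2 genes that were higher, Csn1s2a (1.10) and Socs3 (0.43), and of 1 that was lower, Chil3 (-0.44). The share of genes with the motif was close in genes higher, lower and measured at all. It was present in 10 of 117 genes higher by at least 0.32 with a promoter in the table (8.55%), 6 of 60 lower by at least 0.32 (10.0%), 8.40% of 8261 measured genes and 9.55% of all 27025 genes. A match describes letters only, and binding was not measured.

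Other genes that STAT5 or cytokines are known to induce had ratios on both sides of 0. Of 22 measured members of the list 2 were higher by at least 0.32, Id1 and Socs3 (1.39% of all genes were), and 1 was lower (0.723% of all genes were), with a median of 0.00 beside 0.02 over all genes. Id1, an inhibitor of basic helix-loop-helix factors, had normalised signals of 1008 and 686 in treated and untreated cells (0.56), from probes at 0.49 and 0.62. Socs3, which shuts off cytokine receptors, had 1130 and 838 (0.43). The cyclin gene Ccnd2 and the kinase gene Pim3 stood at 0.28 and 0.28 and Stat5b at 0.30. Stat5b was read by 1 of its 3 probes, and with its dim probes counted it stood at 0.13. In the other direction were Dusp6, a phosphatase that acts on ERK (-0.34, but -0.05 with median centring), Pim1 (-0.22) and the repressor Bcl6 (-0.19), while Cish, the inhibitor induced most directly by STAT5, stood at -0.04.

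Next came Oscp1, which encodes an organic solute carrier partner. It had 857 in treated and 453 in untreated cells (1.89-fold higher), with 6 and 24 h ratios of 0.58 and 1.31. Timp2, an inhibitor of metalloproteinases, had 333 and 206 (0.69), the gap junction gene Gja5 313 and 196 (0.68), and the serine protease gene Prss16 478 and 304 (0.65). Arap3, which regulates small GTPases (0.65), Tmem53 (0.64), the methyltransferase-like gene Mettl27 (0.63), the signalling adaptor Stap2 (0.62), the pro-apoptotic gene Bmf (0.61), the vesicular GABA transporter gene Slc32a1 (0.61) and Bach1 (0.60) completed the 12 genes past 1.5-fold. Each of these 12 rested on 1 measured probe. Gja5 has 4 probes on the array, Bmf 3, and Prss16, Arap3 and Mettl27 have 2 each. Their remaining probes failed the background criterion in at least 1 channel, and with them counted the values became 0.19, 0.20, 0.32, 0.37 and 0.39.

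Below 1.5-fold came Rassf7 (0.57), a member of the Ras association family, the GATA cofactor Zfpm1 (0.56), Elovl7, which lengthens fatty acids (0.56 from probes at 0.65 and 0.46), and Id1. They were followed by the stress-induced cytokine Gdf15 (0.55), the fibrinogen-like gene Fgl1 (0.52, but 0.25 with a second, dim probe counted), Samd10 (0.52) and the corepressor Tle6 (0.52). Of these 20 highest genes, 16 of the 19 measured at all times had a 12 h ratio between the 6 and 24 h ratios. Tmem53, Mettl27 and Samd10 were highest at 12 h, and 1 of the 20, Bmf, was not measured at 6 h. Bach1, a repressor of heme oxygenase and other heme-responsive genes, ran the other way, with 0.76, 0.60 and 0.47 at 6, 12 and 24 h, signals of 304 and 200 at 12 h and 1 probe.

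The lowest ratio among genes measured on every array was that of Spp1, which encodes osteopontin, a secreted ligand of integrins. Its normalised signal was 316 in treated and 588 in untreated cells, 1.86-fold lower, with 6 and 24 h ratios of -0.23 and -1.26. Before normalisation the probe read 417 above background in Cy5 and 391 in Cy3: measured spots were brighter in Cy5 (median 304) than in Cy3 (median 169), so a gene with equal raw signals counts as lower.

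3 genes of small-molecule metabolism came next. Dio2, which activates thyroid hormone, had 246 and 406 in treated and untreated cells (-0.72), Aldh1a3, which makes retinoic acid, 137 and 221 (-0.69), and the glycine transferase gene Glyat 114 and 183 (-0.68). They were the 3 of 10 measured members of their list past 0.32, where 0.723% of all genes were lower, and its other members, among them Rxra, Thra, Thrb and Ahr, lay between -0.13 and 0.10. The list was written with earlier results of these data known, so this count is not a test of the group. Aldh1a3 and Glyat have a second probe that was not well above background, and with it their values were -0.32 and -0.36.

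Mgst1, a membrane glutathione transferase, was the 1 gene at least 1.5-fold lower that was read by more than 1 probe. Its probes read -0.61 and -0.60, its signals were 699 in treated and 1063 in untreated cells, and its ratios were -0.29 and -0.76 at 6 and 24 h. Gpr65, a receptor that senses protons, had 427 and 644 (-0.59). Gpr171, another receptor of this class, stood at -0.55, the myelin gene Pmp22 at -0.54 (-0.27 with its dim probe counted), the lectin receptor Clec7a, which binds beta-glucans, at -0.54, the membrane protein Stom at -0.52 (-0.27 with median centring), the ectonucleotidase gene Enpp1 at -0.51 (-0.23 with its dim probe) and the uncharacterised 4930519L02Rik at -0.50. Plac8, a small protein of myeloid cells and the brightest of the 20, had 24905 and 35044 (-0.49), but 0.07 with median centring. The spindle gene Dlgap5 stood at -0.59 at 12 h, with 0.07 and -0.11 at 6 and 24 h, and its background-corrected signals at 12 h were 97 in Cy3 and 81 in Cy5. It was the 1 gene among the 20 lowest, of those measured at all times, whose other ratios both lay within 0.32.

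**Figure D3:**
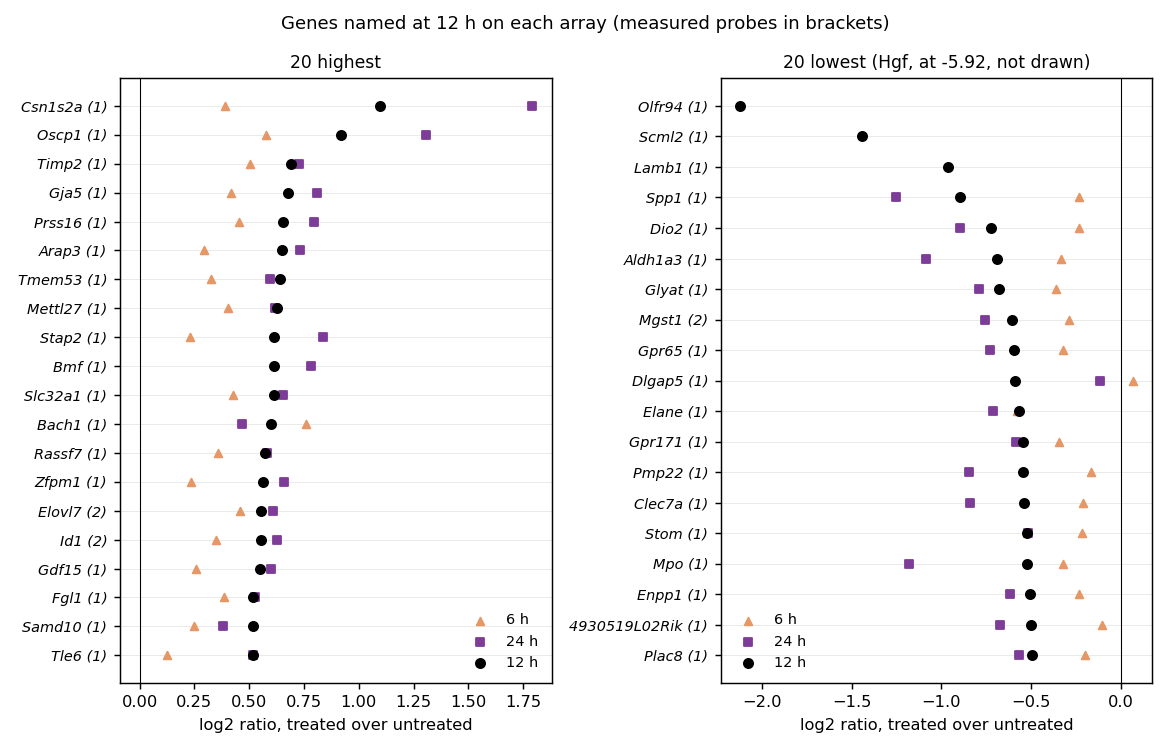
Log2 ratios of the 20 genes with the highest and 20 with the lowest ratio at 12 h (circles), beside the same gene on the 6 h (triangles) and 24 h (squares) arrays, with the number of measured probes in brackets. For most genes the circle lies between the triangle and the square, as for Csn1s2a (0.39, 1.10 and 1.79) and Spp1 (-0.23, -0.90 and -1.26), and Olfr94, Scml2 and Lamb1 have no value at 6 or 24 h.

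Among genes read by several probes, those whose probe nearest 0 was largest do not rest on a single spot. Higher, after Id1 and Elovl7, were the anion exchanger gene Slc26a6 (0.42 and 0.55), Psph, the last enzyme of serine synthesis (0.45 and 0.42), the secreted factor Metrn (0.57 and 0.40), the splicing factor U2af1 (0.36 and 0.41), the GABA transporter gene Slc6a13 (0.41 and 0.36), Ccdc88c (0.35 and 0.36), Sh2d5 (0.34 and 0.64), Snap47 (0.54 and 0.33), Hmgn5, which binds nucleosomes (0.33 and 0.34), and the antiviral gene Shfl (0.43 and 0.33). Psph had signals of 1488 and 1100 in treated and untreated cells and Hmgn5 1512 and 1199, among the brightest of these. Metrn was higher still at 6 h (0.87), and at 24 h stood at 0.31. With median centring Shfl stood at 0.316, below the unrounded threshold of 0.322. With a dim probe of each counted, Ccdc88c stood at 0.23 and Shfl at 0.24.

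Lower by the same rule, after Mgst1, were the kinase gene Mok (-0.29 from both probes), Sun2 of the nuclear envelope (-0.29 and -0.27), the maltase Mgam (-0.45 and -0.27), Ncdn (-0.38 and -0.27), the pyruvate kinase gene Pkm (-0.27 and -0.26), Magt1, Mbnl1, Kifc5b, Rgs18, Vars and Nrg1. Each of these 11 lay above -0.37 as a mean, and 2 of them, Mgam (-0.36) and Ncdn (-0.32), passed 0.32. With median centring Mgam stood at -0.26, and Sun2 and Pkm turned to 0.09 and 0.07. With dim probes counted, Pkm, Mbnl1 and Nrg1 stood at -0.17, -0.14 and -0.12.

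The expression of Hoxa9 itself was checked first among the genes of its pathway. Its normalised signal was 13799 in treated and 11899 in untreated cells, a ratio of 0.21, but 0.70 with median centring. Its 6 and 24 h ratios were 0.35 and 0.11, and whether its probe also reads the transforming copy was not tested. Of 27 Hox genes and TALE cofactors on the array 10 were measured, with a median of -0.03 (-0.51 with median centring). In either direction 0 of them passed 0.32, where 1.39% of all genes were higher and 0.723% lower. With median centring, where 1390 of all genes were higher and 3198 lower, Hoxa9 (0.70), Hoxa2 (-0.89), Hoxb4 (-0.82) and Hoxb6 (-0.54) were past it. Hoxa2 (-0.22) was the farthest from 0, but its signals of 73 in treated and 85 in untreated cells were close to background. It was not measured at 6 or 24 h. The cofactors Pbx2, Pbx3, Pbx4 and Pknox1 lay between -0.08 and 0.07.

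Genes reported as direct targets of HOXA9 lay on both sides of 0. Of 23 measured, 2 were higher by at least 0.32 and 1 lower, against 1.39% and 0.723% of all genes, with a median of 0.06 (0.02 with median centring). The receptor tyrosine kinase gene Kit had 329 in treated and 258 in untreated cells (0.35), and its 6 and 24 h ratios were 0.31 and 0.31. The Src family kinase gene Lck stood at 0.34 (0.02 with median centring) and its relative Lyn at 0.27, while Btk, a kinase of the Tec family, stood at -0.35 (-0.11 with median centring) with signals of 815 and 1039. Myb, a regulator of progenitor growth, had a mean of -0.28 from 4 probes that did not agree. The 2 probes assigned to its transcript variant 2 read -0.45 and -0.58, that of variant 1 read 0.13, and that of a bone clone -0.23. Sox4 (-0.19), the CDK gene Cdk6 (0.14), Bcl2 (0.06) and Foxp1 (0.19) lay within 0.32, as did Myc, at -0.12 from 3 probes (0.11 SD between probes). Of 10 measured markers of stem and progenitor cells, Kit and Egfl7 were higher by at least 0.32 and 0 were lower, with a median of 0.11 that turned to -0.0076 with dim probes counted.

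Complexes of HOXA9 with PBX bind the letters TGATTTAC or TGATTTAT, which were searched for in the same promoter windows on both strands. They were found near the start of 3 of the genes past 0.32, which are shown here with 30 bases each on the gene's strand.

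Egfl7, from 47 bases before the start, chr2:26583807-26583836: catcccagtccTGATTTACccgggatggag

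Amot, from 194 bases before the start, chrX:145487815-145487844: gaattcatctaTGATTTATgaatacagtcc

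Amot, from 110 bases before the start, chrX:145487731-145487760: ccttagaggacTGATTTATccatcctctgg

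Vat1, from 220 bases before the start, other strand, chr11:101466401-101466430: gctttctacgaATAAATCAagtcttagact

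Egfl7, a secreted vascular factor, was higher (0.35), and Amot, which binds angiostatin, and the transport gene Vat1 were lower (-0.41 and -0.42, or -0.31 and -0.28 with median centring). TGATTTAC was in 1 of 117 genes higher (0.855%) and 0 of 60 lower, against 0.484% of measured genes, and TGATTTAT in 0 of 117 and 2 of 60 (3.33%), against 0.436%. CACGTG, bound by Myc and its relatives, was in 12.0% of the higher, 10.0% of the lower and 12.4% of the measured genes. The windows of the higher genes had a median GC content of 62.0%, those of the lower 55.8% and those of all measured genes 60.7%.

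Of 15 measured genes of primary granules, 2 were lower by at least 0.32 and 0 higher, against 0.723% and 1.39% of all genes, 12 lay below 0, and the median was -0.09 (0.14 with median centring, where the sign turned). Elane, the neutrophil elastase, had 3288 in treated and 4876 in untreated cells (-0.57, but -0.19 with median centring), and was nearly as low at 6 h (-0.58) as at 24 h (-0.71). Mpo, myeloperoxidase, had 7817 and 11224 (-0.52, but -0.06 with median centring), with -0.32 and -1.18 at 6 and 24 h. The proteinase gene Prtn3 (-0.27, but 0.02 with median centring), the protease activator Ctsc (-0.27) and the inhibitor Serpinb1a (-0.27, but 0.14 with median centring) lay within 0.32, as did Ms4a3 (-0.05), Lyz2 (-0.07) and Cst7 (0.12).

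Listed genes of secondary granules and mature neutrophils lay on both sides of 0, with a median of 0.01. Of 21 measured, 1 was higher by at least 0.32 and 3 lower, against 1.39% and 0.723% of all genes. Itgam, the alpha chain of the complement receptor, was higher (0.37 from probes at 0.22 and 0.53), and lower were Mgst1, the chitinase-like gene Chil3 (4558 and 6167, -0.44) and the collagenase Mmp8 (-0.33). With median centring Chil3 stood at -0.03 and Mmp8 at -0.16. Lcn2 (0.25), S100a8 (0.14), S100a9 (-0.03), Ltf (0.04), Camp (-0.18) and Ngp (-0.16), all products of these granules or of mature cells, lay within 0.32.

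Monocyte and macrophage genes were mostly below 0, 19 of 25 measured, with a median of -0.06 (-0.09 with median centring), 3 lower by at least 0.32 and 0 higher, against 0.723% and 1.39% of all genes. Besides Spp1 and Clec7a the third was the complement gene C1qb (-0.34), whose signals of 67 and 85 were close to background. Irf8, the factor that directs progenitors to monocytes, stood at -0.30 (probes at -0.41 and -0.19), the chemokine receptor gene Ccr2 at -0.27 and the lipopolysaccharide coreceptor Cd14 at -0.23. Csf1r (-0.12), Adgre1 (0.01) and the lysosomal marker Cd68 (-0.21) lay within 0.32, and Fcgr1 (0.20) was the highest. Antigen presentation differed in 1 of 17 measured genes, the invariant chain Cd74 (-0.40).

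Transcription factors of the myeloid lineages split, beside 1.39% of all genes higher by at least 0.32 and 0.723% lower. Of 31 measured, Bach1 and Id1 were higher by at least 0.32, and Klf2, a factor of quiescence (340 and 471, -0.47), and Spi1, which encodes PU.1 (93 and 120, -0.36), were lower. Cebpa (-0.08), Gfi1 (0.02), Cebpb (0.21), Runx1 (0.27) and Tal1 (0.28) were within 0.32. The erythroid list, of which 2 of 15 members were measured, had the carbonic anhydrase gene Car2 at 0.36 and the transferrin receptor gene Tfrc at -0.32 (0.18 and -0.23 with median centring), and the mast cell and basophil list had the protease Mcpt8 at 0.40 and the histamine-producing enzyme Hdc at -0.32, with Gata2, Cpa3 and Fcer1a not well above background.

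**Figure D4:**
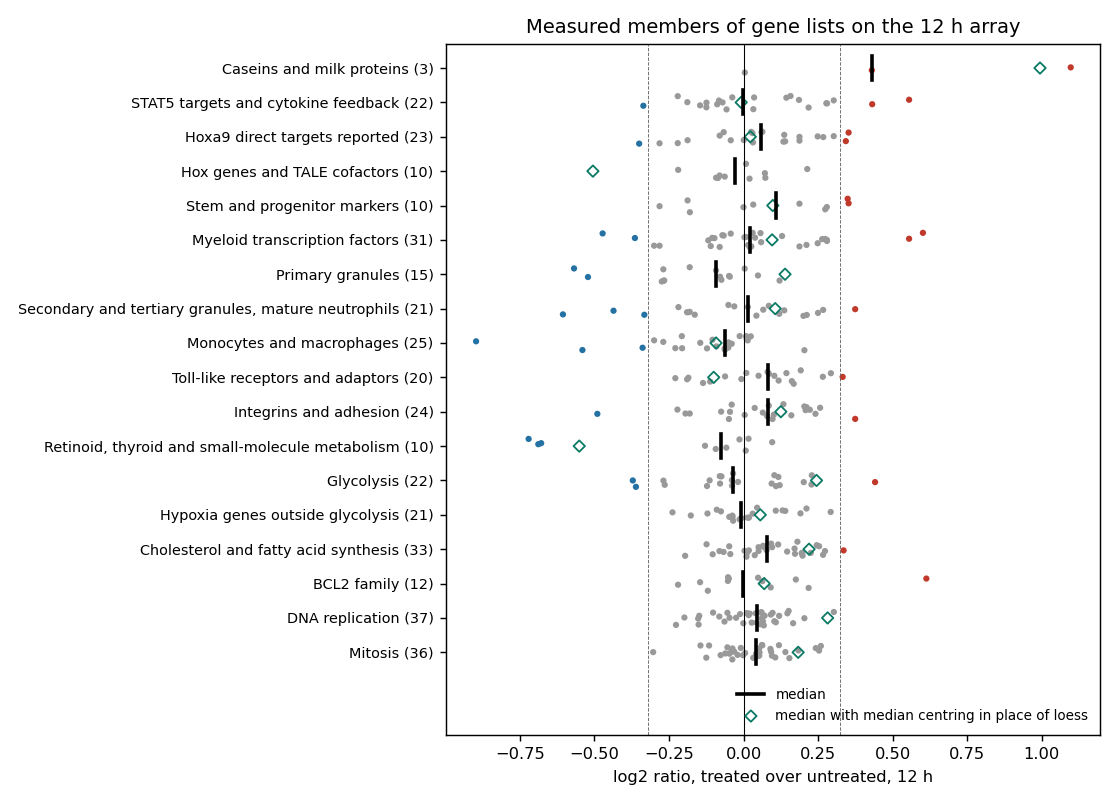
Log2 ratios at 12 h of the measured members of 18 gene lists (number measured in brackets), with the list median as a black bar and the median obtained with median centring as a diamond. Red and blue points are higher by at least 0.32 and lower, and most members of every list but that of caseins and milk proteins lie between the dashed lines. The diamond of the primary granules lies at 0.14, on the other side of 0 from the bar at -0.09.

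Few members of each receptor or signalling list passed 0.32, but over all genes only 1.39% were higher by as much and 0.723% lower. Of 24 cytokine receptor genes 1 passed 0.32, Kit, and the GM-CSF receptor chains Csf2ra and Csf2rb stood at 0.20 and -0.06. Of 22 genes of Src and Tec kinases and their adaptors 2 were higher, Stap2 and Lck, and Btk was lower. Toll-like receptor genes had a median of 0.08 (-0.10 with median centring), with 1 of 20 past 0.32, the lipopolysaccharide receptor Tlr4 (0.33, but 0.19 with its dim probe counted), and the adaptors Tirap and Myd88 at 0.29 and 0.27. Integrins and adhesion genes had a median of 0.08 (0.13 with median centring), with Itgam higher and the adhesion receptor Adgre5 lower (2886 and 4054, -0.49, but -0.13 with median centring). The oxidase subunit genes Ncf1 (0.29) and Cybb (0.12) were within 0.32, as were all 8 of their list. Of 14 genes in the list of chemokines and receptors 1 passed it, Gpr65, which senses protons and not a chemokine. Interferon-response genes had 1 of 19 past 0.32, the nucleic acid sensor Zbp1 (0.35, but 0.23 with median centring), and of 16 NF-kB genes 0 passed.

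Energy metabolism differed at single enzymes, beside 1.39% of all genes higher by at least 0.32 and 0.723% lower. Of 22 glycolysis genes the glucose transporter gene Slc2a1 was higher (1676 and 1234, 0.44), with -0.07 at 6 h and 0.42 at 24 h, and Eno1 was lower (669 and 859, -0.36, but -0.15 with median centring), as was Pgam1 (-0.37, but 0.11 with median centring). The list's median was -0.04 (0.24 with median centring) at 12 h and -0.17 at 6 h. Of 21 hypoxia genes outside glycolysis 0 passed 0.32, Bnip3 stood at 0.02 and the median at -0.01, where the 6 h median was -0.23. G6pdx, which opens the pentose phosphate pathway, was lower (3258 and 4333, -0.41, but -0.04 with median centring) and so was Mgst1, out of 32 genes of that pathway and of glutathione. Iron and heme genes had Bach1 higher and Tfrc lower out of 23, with Hmox1, a target of BACH1, at 0.01.

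Lipid synthesis genes were mostly just above 0, 26 of 33, with a median of 0.08 (0.22 with median centring). Beside the counts that follow, 1.39% of all genes were higher by at least 0.32 and 0.723% lower. The desaturase gene Scd1 alone passed 0.32 (0.34, but -0.27 with median centring), and Insig2 (0.27) and Idi1 (0.25) lay within it. Actin genes had Arap3 and the severing protein Gsn higher out of 18, Gsn with 3878 and 2725 (0.51) after -0.08 at 6 h and before 1.04 at 24 h. Histones had H2ac4 (0.44) and the linker histone H1f0 (0.33, but 0.17 with dim probes counted) higher out of 27, and of 18 genes of HMG proteins and the nuclear lamina Hmg20b was higher (0.39), with Lmnb1 at 0.14 where it had been 0.94 at 6 h. Among metalloproteinases and their inhibitors Timp2 was higher and Mmp8 lower, and the median of 0.06 turned to -0.09 with median centring and -0.02 with dim probes counted.

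Genes of growth and survival differed little. Of 37 replication genes, 36 of mitosis, 33 of ribosome biogenesis, 34 of cytosolic ribosomal proteins, 32 of the proteasome, 40 of oxidative phosphorylation, 36 of the RNA polymerase II machinery and 34 of lysosomes 0 passed 0.32, against 1.39% and 0.723% of all genes. Their medians lay between -0.03 and 0.04, and with median centring all 8 lay above 0, from 0.12 to 0.46. Of 20 genes of the G1 phase the transcription factor E2f1 passed (0.34, from probes at 0.08 and 0.59, and 0.27 with median centring), and Cdkn1a, the p21 inhibitor, stood at 0.03. Of 12 BCL2 family genes Bmf passed, with Mcl1 at -0.15 and Bcl2l1 at 0.22 (-0.11 with median centring), and of 22 genes of the p53 response 0 passed. Derl3, which draws misfolded proteins from the endoplasmic reticulum, was the 1 of 30 unfolded-protein genes past 0.32 (0.38), with 0.06 and 1.03 at 6 and 24 h, and Psph the 1 of 30 in the ATF4 response, where Atf4 stood at -0.03 and Asns at 0.04. Of 15 heat-shock genes 0 passed.

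The 12 h ratio was also set beside those of the other times in genes with several probes. The 8 highest and 8 lowest differences of the 12 h ratio from the mean of 6 and 24 h, with the probes of a gene on 1 side, were small. Mtfr1l, a regulator of mitochondrial fission, was highest (0.33 at 12 h against 0.07 and 0.00, a difference of 0.29), but its probes read 0.09 and 0.56. Psap, the precursor of saposins, stood at -0.06 against -0.26 and -0.29, and its probes agreed within 0.03 (SD). For the endosomal GTPase Rab7 the 12 h ratio of 0.06 lay between 0.14 and -0.41. Its difference was 0.19, and the channel Tpcn1, the elongation factor Eef2, Vps39, the oxidase Ero1a and Emilin2 had differences of 0.18 to 0.17. Lowest were Slc31a2 (-0.47 against 0.02 and -0.12, resting on 1 of its probes), the interferon-induced Ifi27l2a (0.00 against 0.08 and 0.47), the mitotic gene Nusap1 (-0.30 against -0.07 and -0.02, probes at -0.47 and -0.13), Sgo2a, the chaperone Calr, Ifi27, Chmp4b and Trim30a. No test can be made of 1 array against another, and a gene's level in untreated cells enters these values as well.

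The largest ratios on the array belonged to spots seen at 12 h alone. Of 216 genes measured on the 12 h array and on neither other, 8 were lower by at least 0.32 and 1 higher, and 4 were at least 1.5-fold lower. Hgf, hepatocyte growth factor, stood at -5.92 from 1 of its 4 probes, whose Cy3 spot read 2366 with an SD of 655 between its pixels, against 75 and 74 on the 6 and 24 h arrays. Its other 3 probes were at background on every array. The odorant receptor gene Olfr94 (-2.12) read 8277 in Cy3 and 4768 in Cy5, against 77 and 68 at 6 h and 82 and 70 at 24 h. Scml2, a Polycomb-group gene (-1.44), had 1 of 3 probes above background, and the laminin gene Lamb1 (-0.96) had signals of 80 in Cy3 and 25 in Cy5 above background. Btbd11, Chrna9 and the clones AK043066 and C030006F08Rik lay between -0.45 and -0.37 and the clone AK085448 at 0.38 (-0.16 with median centring); these 5 were named after their values were seen. Among the 10957 genes measured on all 3 arrays the counts were 156 and 74 at 0.32, 11 and 7 at 1.5-fold and 1 and 0 at 2-fold.

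**Figure D5:**
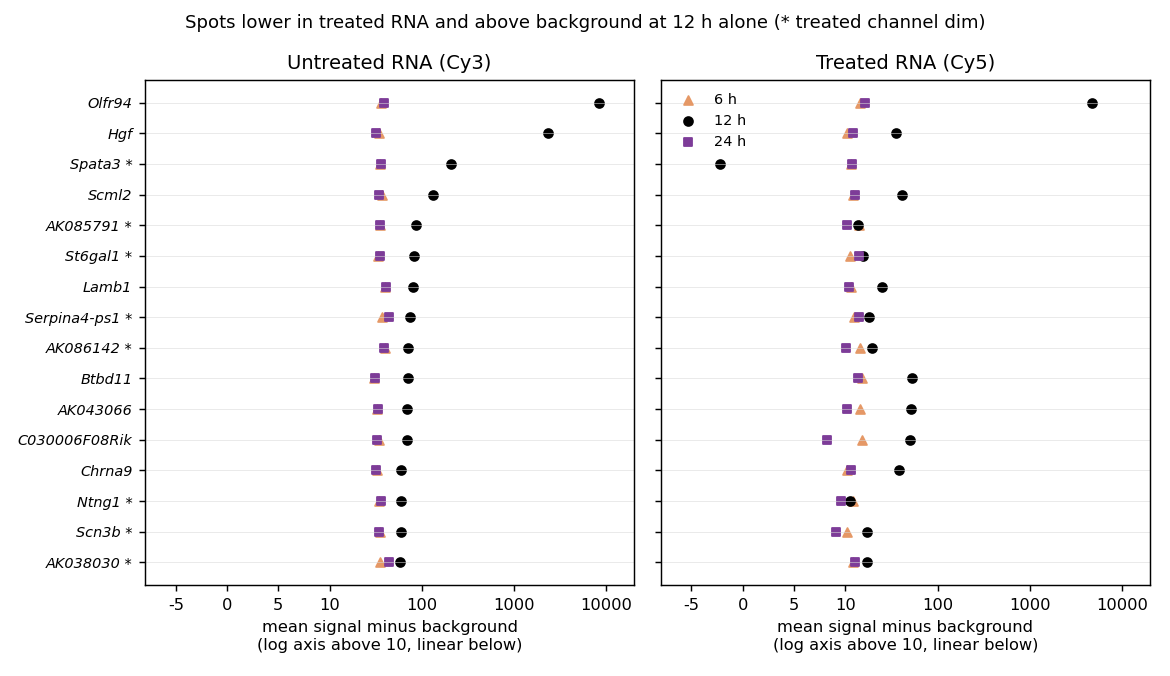
Mean signal minus background in untreated RNA (Cy3, left) and treated RNA (Cy5, right) on each array, for the 16 spots that were lower in treated RNA at 12 h and above background on that array alone; an asterisk marks spots whose treated channel was not well above background. The 12 h circle lies to the right of the other arrays in Cy3 for every spot, from 59 for AK038030 to 8230 for Olfr94, where the 6 and 24 h signals lie between 30 and 44.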

How the data were processed

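RNA of MigA9 cells treated with DB818 for 6, 12 or 24 h (Cy5) and of untreated cells (Cy3) was hybridised to 3 two-colour Agilent arrays, 1 for each time. The authors deposited scanner output of Agilent Feature Extraction 9.1.3.1, per the submitters' processing notes, with mean spot and local background signals as intensity per channel, not normalised between channels. The authors also deposited a table of values, which equals the scanner's log10 ratio of Cy5 to Cy3 exactly, and the scanner's error of that ratio. The direction comes from the dyes in the labels. Background was corrected here by normexp with an offset of 50 and ratios were normalised by loess within each array (limma 3.58.1 in R 4.3.3). Python 3.11.15 with pandas 2.3.3 and numpy 2.4.6 gave the tables, and matplotlib 3.10.9 the figures. Control spots, 36 outlier spots and saturated spots were left out, and a probe had to be well above background in both channels. Of 41174 probes, 16737 (40.6%) were measured at 12 h. The calculation was tested on simulated data. With 1 array a time no test across arrays was made.

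Probes were named through RefSeq by accession (22864), symbol (6732) or synonym (3498), and 8080 kept the file's name, which can be old. Promoter sequences are RefSeq's, build GRCm38.p6. The members, the 48 gene lists (47 with a measured member) and the rules were chosen with earlier results of these data known, and the lists were written from general knowledge. Genes named are the 20 highest and 20 lowest ratios with a RefSeq symbol and probes of 1 sign, the 12 highest and 12 lowest of those with at least 2 probes by the probe nearest 0, up to 4 members of each list by size and its defining members, the 5 largest bounds each way, 12 genes fixed by name, and the 8 highest and 8 lowest differences of 12 h from the mean of 6 and 24 h. Alternatives were no background correction, plain subtraction, offset 0, median centring, Agilent's processed signals, no filter on dim probes, probes above background on all arrays, the brightest probe of a gene, and saturated spots kept.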

Additional observations from a re-analysis of the deposited data

Results flagged for a closer look

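At 12 h 289 probes were well above background in untreated RNA and not in treated RNA, so they stood outside the ratios above and give a bound alone. The 8 genes with a bound of at least 1.5-fold lower and no measured probe are named here. Arcn1 (1.54), which another probe measured, is not among them. The bound is the untreated signal over the higher of the treated signal and the lowest signal among probes well above background. It was at least 5.15-fold lower for Spata3, 2.35 for the clone AK085791, 2.19 for the sialyltransferase gene St6gal1, 1.92 for Serpina4-ps1, 1.82 for AK086142, 1.65 for the netrin gene Ntng1, 1.56 for the sodium channel gene Scn3b and 1.55 for AK038030. In Cy3 they read between 58.6 (AK038030) and 206 (Spata3) above local background at 12 h. Together with the 8 spots of the genes lower at 12 h alone they make 16 spots, of which 9 lie within 2 rows and columns of another of them on the slide: C030006F08Rik beside AK043066, Spata3 beside AK085791, Chrna9 beside Btbd11, and Lamb1, Scn3b and AK086142. The part of the slide position in these ratios was not tested. In the other direction the largest bounds of genes with no measured probe were 1.35 for Clip4 and 1.31 for Olfr1153. By their bounds, 43 genes with no measured probe were lower by at least 0.32 on the log2 scale and 3 were higher. In Cy5 alone 1686 probes were above background.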

How the results depend on the processing

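No paired analysis was possible because each time has 1 array, and no replicate could be left out. Counts higher and lower by at least 0.32 on the log2 scale, 160 and 83, became 379 and 161 with plain subtraction, 632 and 418 with offset 0, 1390 and 3198 with median centring, 653 and 745 with Agilent's processed signals, and 13 and 1 where at least 2 probes each had to pass. At 1.5-fold, 12 and 11 became 36 and 20, 97 and 80, 105 and 1286, 119 and 199, and 0 and 1 under the same settings. The 12 became 7 with no filter on dim probes, and the 11 became 7 on probes above background on all arrays and 20 with saturated spots kept. At 2-fold, 1 and 3 became 6 and 10 with offset 0, 2 and 13 with median centring, 13 and 36 with Agilent's signals and 0 and 0 with at least 2 probes. The 3 became 0 on probes above background on all arrays and 5 with saturated spots kept. Of 86 named genes past 0.32, 66 were still past it with median centring, where Plac8 (0.069), Pgam1 (0.11) and Scd1 (-0.27) changed sign. Under the other settings 75 to 86 of those with a value were still past it and 0 changed sign. The median of all genes moved at most to -0.03. Of 47 list medians, 18 changed sign with median centring, 4 of them at least 0.05 from 0 before, 10 with no filter on dim probes (2), 9 with Agilent's signals (0), 6 with the brightest probe (1, heat shock), 5 with offset 0 and 3 or fewer under the others (0). Signal over background limits the ratios of dim genes, whose treated and untreated signals both approach the offset.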
